A study of Mus musculus with 12 samples.

Results

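The genes described here are the mouse Wnt ligands, their Frizzled (Fzd) receptors, the secreted inhibitors of the Sfrp and Dkk families and the R-spondins (Rspo). They were chosen by symbol alone, as every Wnt, Fzd, Sfrp, Dkk and Rspo gene with a numbered name in the deposited expression table, without use of any value. The rule found 41 of the 23306 genes in the table: 19 Wnt, 10 Fzd, 4 Sfrp, 4 Dkk and 4 Rspo genes.

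The study sequenced polyadenylated RNA from stromal cells of the mouse thymus, sorted by whether a tomato reporter for Kit ligand was on. All 4 groups came from C57 BL6 mice that carry this KitL-tomato reporter, all were sorted as Lin- Dapi- cells, and each has 3 libraries. Tomato+ VEC were CD31+ EpCAM- vascular endothelial cells with reporter signal, and tomato- VEC were the same gate without it. Tomato+ cTEC were EpCAM+ CD31- UEA1- Ly51+ cortical thymic epithelial cells with reporter signal, and tomato- mTEC were EpCAM+ CD31- UEA1+ Ly51- medullary thymic epithelial cells without it. Between the epithelial groups, reporter state and the choice of cortex or medulla therefore change together and cannot be told apart. The sources used here do not state the age and sex of the mice, or whether replicates came from separate animals. The p-values below therefore measure only the spread between these libraries, which may be technical.

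Wnt proteins are lipid-modified ligands that bind Frizzled receptors, together with the coreceptors Lrp5 or Lrp6 when they signal through beta-catenin, or without them in pathways of cell polarity. Sfrp proteins bind Wnts outside the cell, most Dkk proteins block the coreceptors, and R-spondins raise the number of receptors on the surface by way of Lgr receptors and the ligases Rnf43 and Znrf3. In the thymus, Wnt ligands are known as products of epithelial cells that act on developing T cells and on the epithelium itself, and in blood vessels Fzd4 is known as the receptor of norrin.

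Promoters of 4 genes are shown because the results turn on their RNA: Wnt4 was the leading Wnt gene of the epithelium, Wnt9a and Wnt10b passed the test between the epithelial groups, and Fzd4 was the receptor higher in endothelium. Each is 250 bases before to 50 bases after the start of the gene, 5′ to 3′ on the strand of the gene, from RefSeq on GRCm38.p6. Wnt4 lies at chr4:137277385-137277684 (+), Wnt9a at chr11:59306680-59306979 (+), Wnt10b at chr15:98778101-98778400 (-) and Fzd4 at chr7:89404116-89404415 (+). Capitals mark GACGC or its reverse complement GCGTC, the core letters bound by FOXN1, the transcription factor that thymic epithelium needs.
Wnt4: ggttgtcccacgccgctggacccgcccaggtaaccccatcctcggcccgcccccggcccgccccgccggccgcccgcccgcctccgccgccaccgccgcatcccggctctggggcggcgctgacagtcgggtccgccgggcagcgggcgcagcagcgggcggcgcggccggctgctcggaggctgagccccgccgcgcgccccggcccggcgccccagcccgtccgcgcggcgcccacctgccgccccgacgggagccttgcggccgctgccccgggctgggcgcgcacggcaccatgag
Wnt9a: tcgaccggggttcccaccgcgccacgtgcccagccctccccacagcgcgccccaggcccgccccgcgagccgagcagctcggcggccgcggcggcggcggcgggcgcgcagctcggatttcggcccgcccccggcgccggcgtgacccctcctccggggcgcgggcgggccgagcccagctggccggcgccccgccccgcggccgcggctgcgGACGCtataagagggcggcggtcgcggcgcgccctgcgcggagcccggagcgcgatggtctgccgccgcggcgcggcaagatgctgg
Wnt10b: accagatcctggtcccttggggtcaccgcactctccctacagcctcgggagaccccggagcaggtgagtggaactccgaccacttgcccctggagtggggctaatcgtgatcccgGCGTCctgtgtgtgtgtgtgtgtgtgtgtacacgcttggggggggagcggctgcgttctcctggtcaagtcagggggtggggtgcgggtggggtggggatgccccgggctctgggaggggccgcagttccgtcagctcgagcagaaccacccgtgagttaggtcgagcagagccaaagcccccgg
Fzd4: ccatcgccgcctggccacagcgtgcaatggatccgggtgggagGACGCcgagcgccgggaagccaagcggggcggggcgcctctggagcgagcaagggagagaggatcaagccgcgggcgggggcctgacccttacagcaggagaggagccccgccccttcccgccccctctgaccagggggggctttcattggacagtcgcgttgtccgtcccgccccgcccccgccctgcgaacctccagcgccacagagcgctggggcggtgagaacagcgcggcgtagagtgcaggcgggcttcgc
The Wnt4 promoter held no such run of letters, and those of Wnt9a, Wnt10b and Fzd4 held 1 each. None of the 4 held CTTTGAT or ATCAAAG, the letters bound by the TCF and LEF factors through which beta-catenin acts. Of the 41 genes, 27 had at least 1 promoter in the table, 30 promoters in all. GACGC or GCGTC stood in 15 of these 30, against 27.2% of all 32851 promoters of the same length. CTTTGAT or ATCAAAG stood in 2 of the 30, those of Wnt5b and Wnt11, against 3.73% of all promoters. The C and G content of the 4 windows was 84.3% for Wnt4, 83.3% for Wnt9a, 66.3% for Wnt10b and 72.7% for Fzd4. That of the 30 promoters and of all promoters was not computed. GACGC and GCGTC both hold a CG, and the part of base content in their share was not tested. A match is a run of letters, not a shown binding site.

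Libraries held 8388869 to 11807130 counts, and 13406 to 14346 genes were detected per VEC library, against 15086 to 15605 per cTEC library and 16708 to 17015 per mTEC library. Levels of a gene are given in CPM, counts scaled to library size after TMM normalisation. The endothelial and epithelial gates matched their markers. The 8 endothelial genes summed to 9602 to 10329 CPM in tomato+ VEC and 9519 to 13004 CPM in tomato- VEC. In cTEC they summed to 2.25 to 424 CPM and in mTEC to 26.0 to 72.5 CPM. The 424 CPM were in cTEC replicate 2, and the other cTEC libraries held 26.2 and 2.25 CPM. Epithelial markers (6 genes) summed to at most 1.23 CPM in any VEC library, against 2294 CPM or more in every epithelial library, with Epcam at 0 in tomato+ VEC. The 6 cortical genes summed to 5255 to 6543 CPM in cTEC, against 496 to 572 CPM in mTEC. The 7 medullary genes summed to 5083 to 6671 CPM in mTEC, against 788 to 1366 CPM in cTEC. Enpep, the gene of Ly51, averaged 89.6 CPM in cTEC and stood at 0 to 35.8 CPM in mTEC. Each epithelial gate thus held some signal of the other. Fibroblast markers were not absent from the epithelial gates. The 10 genes of that list summed to 12.9 to 51.9 CPM in the VEC libraries, against 1629 to 2283 CPM in cTEC and 170 to 430 CPM in mTEC. Most of that sum was Dcn, at a mean of 1864 CPM in cTEC and 241 CPM in mTEC, while the other 9 genes together averaged 143 and 55.1 CPM and Twist2 was at 0 in both. The 8 pericyte and smooth muscle genes, all with a count in the epithelial groups, summed to 69.8 to 483 CPM in VEC, against 485 to 1608 CPM in cTEC and 850 to 1256 CPM in mTEC. In sorted bulk samples, fewer cells of a type and less RNA per cell cannot be told apart.

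Wnt ligand RNA was an epithelial feature of these libraries, while Frizzled RNA was present in all 4 groups with a different make-up in each tissue. Levels of different genes are compared in RPKM, reads scaled to transcript length and library size, as the authors deposited them. The 19 Wnt genes summed to 0.173 to 0.484 RPKM in tomato+ VEC and 0.322 to 6.49 RPKM in tomato- VEC, against 29.6 to 44.7 RPKM in cTEC and 22.8 to 26.6 RPKM in mTEC. No Wnt gene reached 10 counts in a tomato+ VEC library and at most 3 did in a tomato- VEC library, against 6 to 10 per cTEC library and 7 to 10 per mTEC library. The 10 Fzd genes summed to 26.6 to 44.0 RPKM in tomato+ VEC and 22.7 to 30.3 RPKM in tomato- VEC, against 41.7 to 65.1 RPKM in cTEC and 26.5 to 32.2 RPKM in mTEC. The 4 Sfrp genes summed to under 1 RPKM in every VEC library (highest 0.855), against 16.2 to 42.6 RPKM in cTEC and 40.0 to 93.3 RPKM in mTEC. The Dkk and Rspo families stayed below 10 RPKM everywhere, with highest sums of 9.23 RPKM for Dkk, in a tomato+ VEC library, and 7.00 RPKM for Rspo, in an mTEC library.

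**Figure D1:**
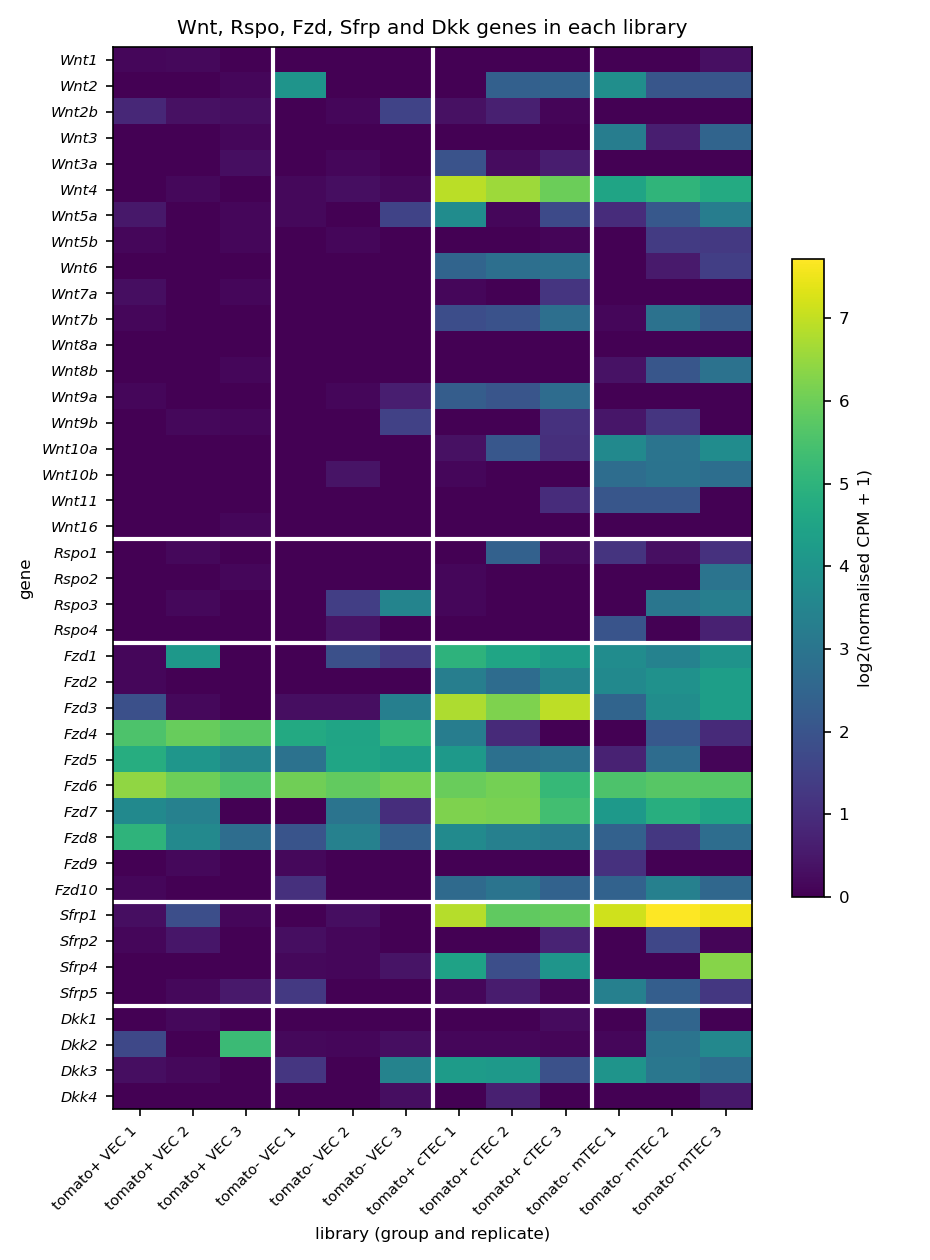
Level of each of the 41 genes (rows, by family, white lines between families) in each of the 12 libraries (columns, white lines between groups), as log2 of normalised CPM + 1. The Wnt and Sfrp rows are dark in the 6 VEC columns apart from single libraries such as Wnt2 in tomato- VEC replicate 1, Fzd6 is bright in every column, and Fzd4 is bright in the VEC columns.

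Per length, the order within the families differed between the groups. Wnt4 was first among the Wnts in cTEC at 27.0 RPKM, where it made up 59.9% to 79.2% of the summed Wnt level, and first in mTEC at 7.20 RPKM, where its share was 22.8% to 37.4%. It was followed in cTEC by Wnt6 (3.03 ± 0.479 RPKM), Wnt2 (1.48 ± 1.29 RPKM) and Wnt9a (1.40 ± 0.408 RPKM), where Wnt2 did not differ from Wnt6 or Wnt9a beyond the SD (n = 3). In mTEC Wnt10a (5.52 ± 1.73 RPKM), Wnt2 (3.26 ± 2.94 RPKM) and Wnt10b (2.87 ± 0.155 RPKM) followed Wnt4 (7.20 ± 1.24 RPKM), and both Wnt10a and Wnt2 overlapped Wnt4 within the SD. In mTEC replicate 1 Wnt2 was the first Wnt gene. Wnt4 thus held a smaller share of the Wnt level in each mTEC library than in any cTEC library. Among receptors Fzd6 was first in all 4 groups, at 14.6 ± 3.81 RPKM in tomato+ VEC, 14.6 ± 1.50 RPKM in tomato- VEC, 14.8 ± 4.86 RPKM in cTEC and 12.7 ± 0.451 RPKM in mTEC. The receptor in second place was Fzd4 in both endothelial groups, at 12.7 ± 1.70 RPKM in tomato+ VEC and 6.86 ± 1.86 RPKM in tomato- VEC. In the epithelial groups it was Fzd7, at 14.3 ± 4.47 RPKM in cTEC and 4.82 ± 1.02 RPKM in mTEC. Fzd6 and Fzd4 in tomato+ VEC, and Fzd6 and Fzd7 in cTEC, did not differ beyond their SD. Sfrp1 had the highest mean of the Sfrp genes in TEC, at 19.4 ± 8.72 RPKM in cTEC and 42.9 ± 7.34 RPKM in mTEC. Sfrp4 followed at 8.12 ± 5.85 RPKM in cTEC and 15.9 ± 27.5 RPKM in mTEC, overlapped Sfrp1 within the SD in both groups, and was above it in mTEC replicate 3.

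**Figure D2:**
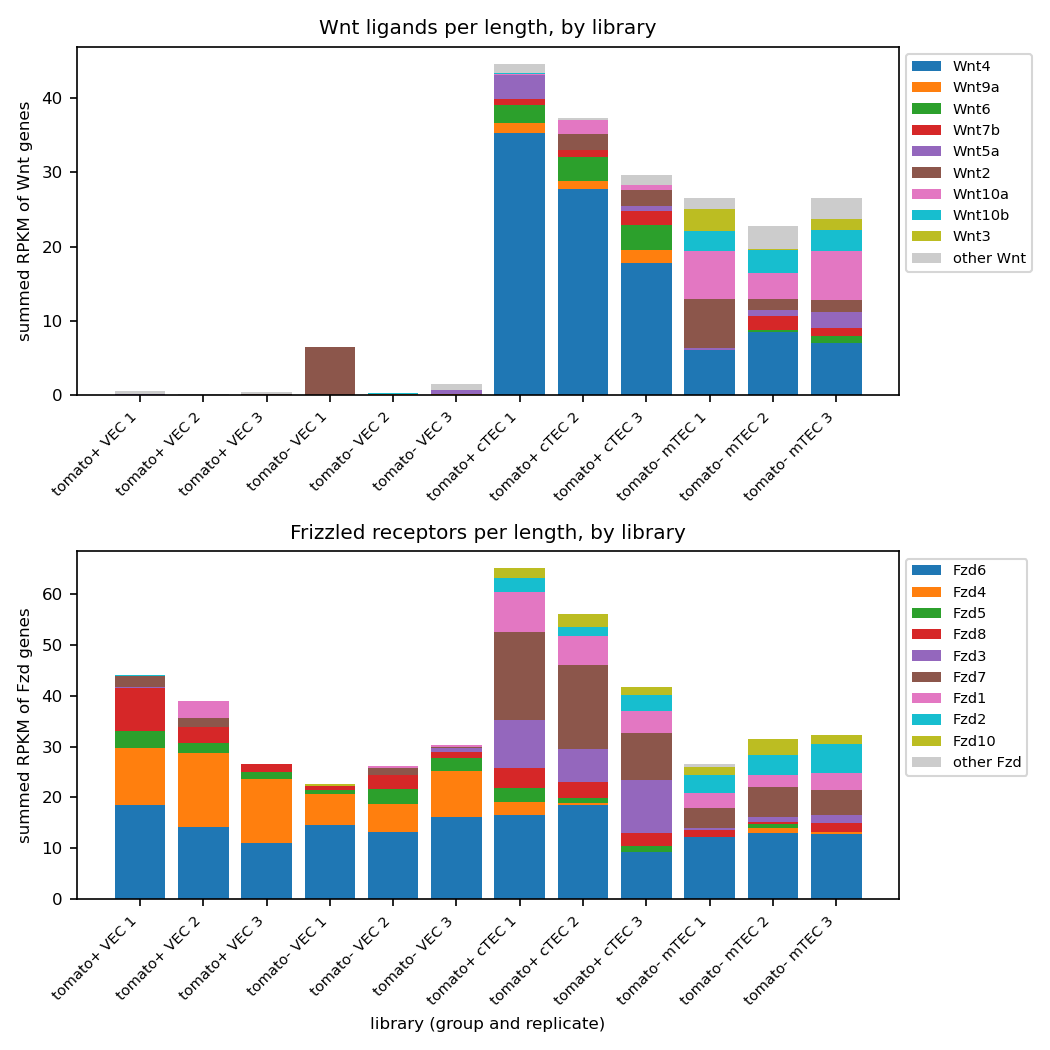
Summed RPKM of the Wnt genes (top) and the Fzd genes (bottom) in each library, with a colour per gene and the remaining genes in grey; no error is drawn, since each bar is 1 library. Wnt bars are near 0 in 5 of the 6 VEC libraries and stand at 22.8 to 44.7 RPKM in the epithelial ones, while Fzd bars exceed 22 RPKM in all 12 libraries and change from Fzd6 and Fzd4 in VEC to Fzd6, Fzd7, Fzd3 and others in TEC.

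The first comparison set both endothelial groups against both epithelial groups (TEC) and asked which tissue holds RNA for ligands, receptors and inhibitors. Of the 41 genes, 26 passed the filter on low counts and were tested. With edgeR, 14 of the 26 passed a Benjamini-Hochberg adjusted p under 0.05: 1, Fzd4, was higher in VEC, and 13 were lower in VEC (5 Wnt, 4 Fzd, 2 Sfrp, 1 Dkk and 1 Rspo gene). Over all 14792 tested genes 36.3% were called, 14.4% higher and 21.8% lower in VEC. The median log2 fold change over the 26 was -3.70, against -0.18 over all tested genes. Of genes called lower, Wnt4, Wnt6, Wnt7b, Wnt10a, Wnt11, Fzd2, Fzd10, Sfrp1, Sfrp4 and Rspo1 had too few VEC reads to pass the filter there. They passed it only through epithelial libraries and so had to differ. Fzd3 and Dkk3 also had too few VEC libraries with enough reads and passed only through epithelial libraries. So did Wnt2, Wnt5a, Wnt9a, Wnt10b and Sfrp5, which were not called. Fzd4 in turn passed the filter only through VEC libraries. The calls and adjusted p of all these genes below, in any fit, the count and the median are therefore descriptions. Below, values are given by library in the order of replicates 1 to 3.

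Wnt4, a ligand known from kidney, gonad and thymus, had 0, 0.131 and 0 CPM in tomato+ VEC and 0.111, 0.212 and 0.112 CPM in tomato- VEC, against 121, 95.2 and 62.2 CPM in tomato+ cTEC and 21.5, 31.7 and 25.5 CPM in tomato- mTEC. Every epithelial library was far above every endothelial library, in which at most 2 counts of Wnt4 were read. The log2 fold change, VEC over TEC, was -9.10 (SE 0.59, edgeR adjusted p = 3.68e-07).

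Wnt10a, a ligand known from skin appendages and teeth, had 0 CPM in every tomato+ VEC library and 0 CPM in every tomato- VEC library, against 0.275, 3.23 and 1.04 CPM in tomato+ cTEC and 11.7, 6.74 and 12.3 CPM in tomato- mTEC. It was therefore detected in epithelium alone, with mTEC above cTEC. Over the group totals it was at least 107-fold lower in VEC (floor of 3 counts over the 6 libraries, edgeR adjusted p = 0.00124).

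Wnt6 had 0 CPM in every tomato+ VEC library and 0 CPM in every tomato- VEC library, against 4.59, 6.08 and 6.32 CPM in tomato+ cTEC and 0, 0.465 and 1.68 CPM in tomato- mTEC. Its epithelial reads came mostly from cTEC, and mTEC replicate 1 held none. It was at least 58.9-fold lower in VEC (edgeR adjusted p = 0.00574).

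Wnt7b had 0.104, 0 and 0 CPM in tomato+ VEC and 0 CPM in every tomato- VEC library, against 2.57, 2.84 and 6.06 CPM in tomato+ cTEC and 0.0964, 6.51 and 3.85 CPM in tomato- mTEC. It was low in epithelium, with mTEC replicate 1 at the endothelial level. With 1 count over all VEC libraries it was 195-fold lower there (95% counting interval 34.7 to 7740, edgeR adjusted p = 0.00242).

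Wnt11, a ligand known for polarity signalling, had 0 CPM in every tomato+ VEC library and 0 CPM in every tomato- VEC library, against 0, 0 and 0.952 CPM in tomato+ cTEC and 3.18, 3.14 and 0 CPM in tomato- mTEC. Only 3 epithelial libraries held it. It was at least 19.9-fold lower in VEC (edgeR adjusted p = 0.0438), a call lost when a library other than cTEC replicate 1, cTEC replicate 2 or mTEC replicate 3 was left out, with adjusted p of up to 1.00. Neither DESeq2 (adjusted p = 0.138) nor limma voom (adjusted p = 0.0930) called it.

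Wnt2 had 0, 0 and 0.107 CPM in tomato+ VEC and 14.9, 0 and 0 CPM in tomato- VEC, against 0, 4.12 and 4.42 CPM in tomato+ cTEC and 13.1, 3.14 and 3.21 CPM in tomato- mTEC. A single tomato- VEC library held more than the highest epithelial library, so the groups overlapped. The log2 fold change was -3.11 (SE 1.63, edgeR adjusted p = 0.165) and did not pass, but it was -7.40 (edgeR adjusted p = 0.0111) without that library. Wnt10b (adjusted p = 0.0691), Wnt5a (0.0534), Wnt9a (0.834) and Wnt9b (0.659) did not pass with edgeR either, and Wnt10b passed only with limma voom and without tomato- VEC replicate 2 (edgeR adjusted p = 0.0300). Wnt9a passed with limma voom only (log2 -1.90, adjusted p = 0.0399). Wnt5a, the classic ligand of polarity signalling, reached 12.5 CPM in cTEC replicate 1 and 8.58 CPM in mTEC replicate 3, against 1.91 CPM in its highest VEC library, tomato- VEC replicate 3. Its log2 fold change was -3.68 (SE 1.37). Without that VEC library it was -5.32 (edgeR adjusted p = 0.0240), and it also passed without cTEC replicate 2 (edgeR adjusted p = 0.0420), with DESeq2, with limma voom and with another scaling. The other 9 Wnt genes were not tested. Of these Wnt3 reached 8.58, 0.581 and 4.65 CPM in mTEC and Wnt8b 0.289, 3.14 and 6.57 CPM, both with no count in cTEC. Wnt3a reached 2.93, 0.196 and 0.520 CPM in cTEC, with none in mTEC. Wnt1, Wnt2b, Wnt5b, Wnt7a and Wnt16 stayed at or under 1.91 CPM in every library, and Wnt8a had no count.

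Fzd4, a receptor for norrin and for Wnts in blood vessels, was the only family gene called higher in endothelium. It had 45.8, 59.0 and 51.2 CPM in tomato+ VEC and 24.6, 21.7 and 33.7 CPM in tomato- VEC, against 8.62, 0.882 and 0 CPM in tomato+ cTEC and 0, 3.37 and 0.882 CPM in tomato- mTEC. All 6 VEC libraries were above all 6 epithelial ones, and the highest epithelial value was in cTEC replicate 1. The log2 fold change was 4.14 (SE 1.10, edgeR adjusted p = 0.0113). The endothelial markers summed to 26.2 CPM in that cTEC library and to 424 CPM in cTEC replicate 2, where Fzd4 was at 0.882 CPM. It was called when each library in turn was left out, with edgeR adjusted p of 0.00348 to 0.0325, and its fold change was 3.87 to 5.90 on the log2 scale over all alternatives. Fzd4 passed the filter on low counts only through VEC libraries, so its call and these values are descriptions.

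Fzd2, a receptor known to bind Wnt5a, had 0.104, 0 and 0 CPM in tomato+ VEC and 0 CPM in every tomato- VEC library, against 8.80, 5.68 and 10.2 CPM in tomato+ cTEC and 11.6, 14.0 and 19.2 CPM in tomato- mTEC. The only endothelial signal was 1 count in a single library. It was 632-fold lower in VEC (95% counting interval 113 to 24983, edgeR adjusted p = 8.16e-05).

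Fzd10 had 0.104, 0 and 0 CPM in tomato+ VEC and 1.11, 0 and 0 CPM in tomato- VEC, against 5.41, 6.86 and 4.42 CPM in tomato+ cTEC and 4.34, 9.18 and 4.97 CPM in tomato- mTEC. All epithelial libraries held it, at 4.34 CPM or more, and above every VEC library. The log2 fold change was -5.42 (SE 1.23, edgeR adjusted p = 0.00447).

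Fzd3, a receptor known from axon guidance and planar polarity, had 2.70, 0.131 and 0 CPM in tomato+ VEC and 0.223, 0.212 and 9.08 CPM in tomato- VEC, against 107, 74.4 and 121 CPM in tomato+ cTEC and 4.63, 12.7 and 19.1 CPM in tomato- mTEC. Its high level was in cTEC, and 1 tomato- VEC library reached the mTEC range. VEC over TEC, the log2 fold change was -4.31 (SE 1.09, edgeR adjusted p = 0.00857).

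Fzd7, a receptor known from epithelial progenitors, had 11.5, 9.55 and 0 CPM in tomato+ VEC and 0, 6.91 and 1.01 CPM in tomato- VEC, against 74.4, 71.2 and 40.5 CPM in tomato+ cTEC and 17.1, 27.4 and 21.9 CPM in tomato- mTEC. Every epithelial library was above every VEC library, and VEC libraries ranged widely. In log2 terms the fold change was -3.10 (SE 1.06, edgeR adjusted p = 0.0380), a call lost when a library other than tomato+ VEC replicate 3, tomato- VEC replicate 1 or tomato- VEC replicate 2 was left out, with adjusted p of up to 0.0828.

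Fzd6, a receptor known from hair and skin patterning, had 85.0, 64.0 and 49.3 CPM in tomato+ VEC and 64.9, 57.4 and 67.2 CPM in tomato- VEC, against 60.4, 68.1 and 35.0 CPM in tomato+ cTEC and 46.3, 51.7 and 49.9 CPM in tomato- mTEC. All 12 libraries lay in the same range. On the log2 scale the fold change was 0.32 (SE 0.24, edgeR adjusted p = 0.345), which did not pass. Of the remaining receptors, Fzd5 had 6.57 to 26.9 CPM in VEC, against 0.0802 to 17.0 CPM in TEC, and a log2 fold change of 1.88 (SE 0.81, edgeR adjusted p = 0.0933). Without mTEC replicate 2 it was 3.13 (edgeR adjusted p = 0.00938), and it also passed with limma voom. Fzd8 had 3.01 to 31.7 CPM in VEC, against 1.40 to 11.8 CPM in TEC (edgeR adjusted p = 0.468). Fzd1 had 0 to 16.2 CPM in VEC, against 9.77 to 30.8 CPM in TEC (log2 -2.63, SE 1.24, edgeR adjusted p = 0.122). The highest VEC value was in tomato+ VEC replicate 2, and without it Fzd1 passed (log2 -5.78, edgeR adjusted p = 0.00239), as it did with DESeq2 and limma voom. Fzd9 was not tested and reached at most 1.16 CPM, in mTEC replicate 1.

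Among inhibitors, Sfrp1, which binds Wnts outside the cell, had 0.208, 2.62 and 0.107 CPM in tomato+ VEC and 0, 0.212 and 0 CPM in tomato- VEC, against 115, 55.7 and 58.1 CPM in tomato+ cTEC and 141, 209 and 186 CPM in tomato- mTEC. Every epithelial library was above 50 CPM, and the highest VEC value was in tomato+ VEC replicate 2. VEC over TEC, the log2 fold change was -8.68 (SE 0.81, edgeR adjusted p = 6.38e-06).

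Sfrp4 had 0 CPM in every tomato+ VEC library and 0.111, 0.106 and 0.336 CPM in tomato- VEC, against 20.6, 2.65 and 15.4 CPM in tomato+ cTEC and 0, 0 and 79.1 CPM in tomato- mTEC. Its highest epithelial value was in mTEC replicate 3, and the other mTEC libraries held none. In log2 terms the fold change was -8.53 (SE 2.14, edgeR adjusted p = 0.0107), and without mTEC replicate 3 it was -3.01 with an adjusted p of 1.00. The fibroblast markers summed to 430 CPM in that library, the highest of the mTEC group, and to 1629 to 2283 CPM in cTEC. Their part in the result was not tested.

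Sfrp5 had 0, 0.131 and 0.428 CPM in tomato+ VEC and 1.45, 0 and 0 CPM in tomato- VEC, against 0.0917, 0.490 and 0.0866 CPM in tomato+ cTEC and 9.26, 3.95 and 1.36 CPM in tomato- mTEC, and its log2 fold change of -1.76 (SE 1.26, edgeR adjusted p = 0.315) did not pass. Without tomato- VEC replicate 1, its highest VEC library, it was -4.38 (edgeR adjusted p = 0.0371). Sfrp2 was not tested and reached 2.09 CPM at most. Dkk3, an atypical Dickkopf that is not known to block the coreceptors, had 0.208, 0.131 and 0 CPM in tomato+ VEC and 1.34, 0 and 9.86 CPM in tomato- VEC, against 17.8, 16.7 and 2.77 CPM in tomato+ cTEC and 14.8, 7.32 and 5.69 CPM in tomato- mTEC. Tomato- VEC replicate 3 overlapped the epithelial range, and the log2 fold change was -3.97 (SE 1.17, edgeR adjusted p = 0.0186). Dkk2, which binds Lrp6, had 2.18, 0 and 37.6 CPM in tomato+ VEC and 0.111, 0.106 and 0.224 CPM in tomato- VEC, against 0.0917, 0.0980 and 0.0866 CPM in tomato+ cTEC and 0.0964, 6.86 and 11.1 CPM in tomato- mTEC. It was high in 1 endothelial library and in 2 mTEC libraries, and was not called (log2 0.87, SE 1.32, edgeR adjusted p = 0.663). Without tomato+ VEC replicate 3 the sign turned (log2 -0.87, edgeR adjusted p = 0.675). Dkk1, the best known blocker of Lrp6, was not tested: its 44 counts were nearly all in mTEC replicate 2, at 4.77 CPM. Dkk4 stayed at or under 0.588 CPM.

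R-spondin RNA was low throughout. Rspo1 had 0, 0.131 and 0 CPM in tomato+ VEC and 0 CPM in every tomato- VEC library, against 0, 4.31 and 0.173 CPM in tomato+ cTEC and 1.25, 0.233 and 1.12 CPM in tomato- mTEC. It was 63.1-fold lower in VEC (95% counting interval 11.0 to 2524, edgeR adjusted p = 0.0212). The call was lost without tomato+ VEC replicate 1 or 3 or cTEC replicate 2, with edgeR adjusted p of up to 0.0844. Rspo3, known as an endothelial R-spondin in other tissues, had 0, 0.131 and 0 CPM in tomato+ VEC and 0, 1.70 and 10.1 CPM in tomato- VEC, against 0.0917, 0 and 0 CPM in tomato+ cTEC and 0, 7.21 and 8.82 CPM in tomato- mTEC. Its reads were in 2 of 3 tomato- VEC and 2 of 3 mTEC libraries, with at most 0.131 CPM in the other 2 groups, and it was not called (log2 -0.08, SE 4.01, edgeR adjusted p = 1.00), with a sign that turned in 7 of the 12 fits without a library. Rspo2 was untested, with 6.89 CPM in mTEC replicate 3 and at most 0.107 CPM elsewhere, and Rspo4 reached 2.99 CPM in mTEC replicate 1.

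Between VEC and TEC, 1 of the 26 genes was higher and 6 were lower in VEC with no overlap of libraries, against 17.0% of all tested genes, 7.49% higher and 9.49% lower. All of these but Fzd7 passed the filter on low counts only through the tissue where they are high, so this count is a description too. The fibroblast and the pericyte and smooth muscle lists were also higher in TEC, by the sums given above, and their part in the calls was not tested.

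**Figure D3:**
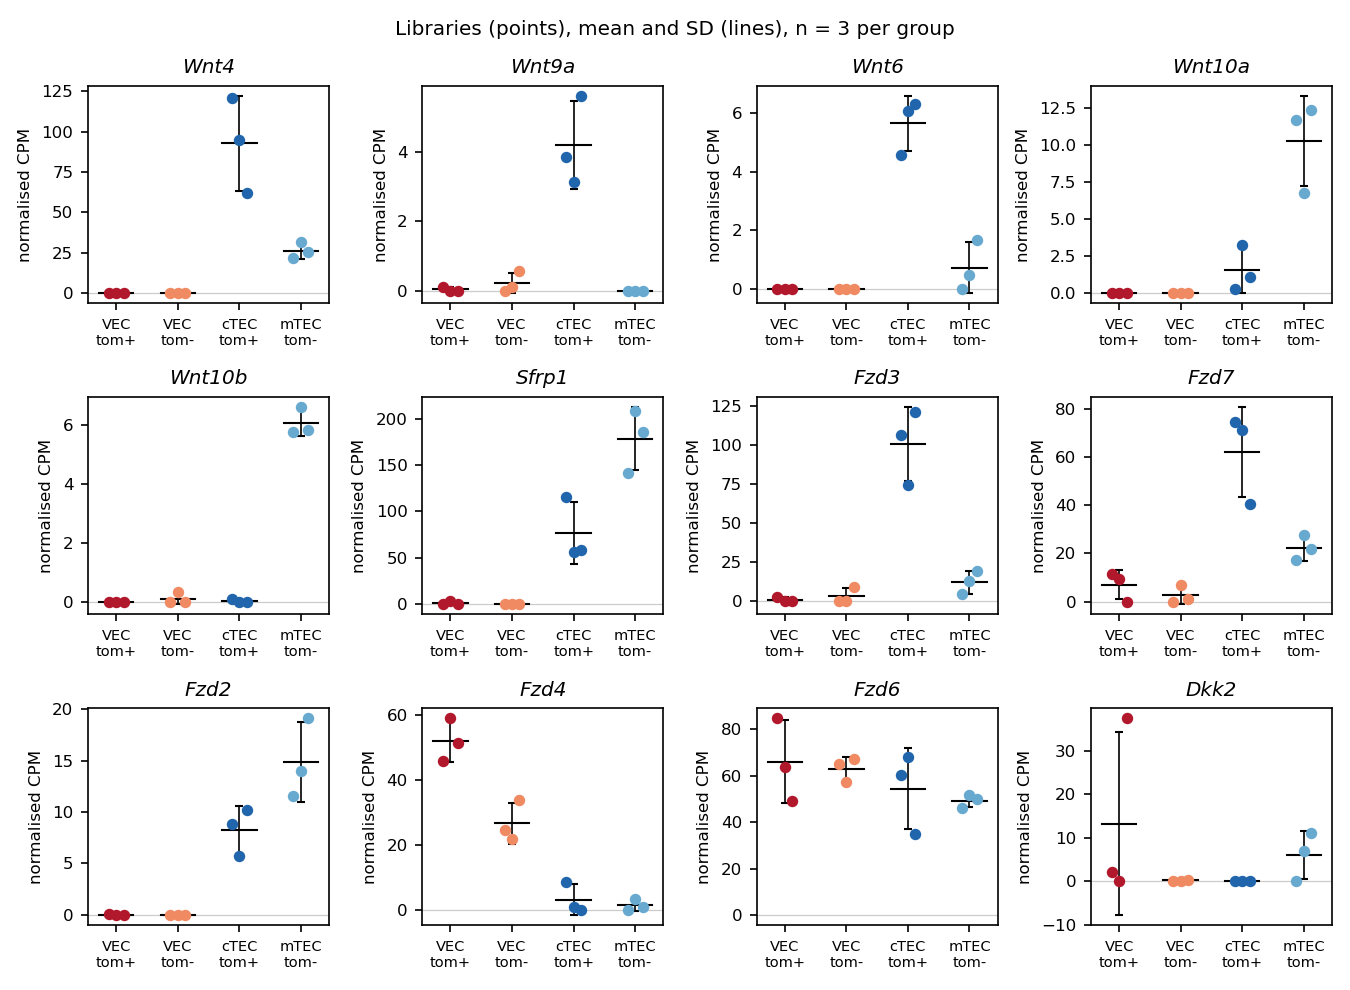
Normalised CPM of 12 of the genes in every library (points), with mean and SD (lines, n = 3 per group), on linear axes that differ between panels; tom+ and tom- stand for tomato+ and tomato-. Wnt4, Wnt9a, Wnt6, Fzd3 and Fzd7 are highest in tomato+ cTEC, Wnt10a, Wnt10b, Sfrp1 and Fzd2 in tomato- mTEC, Fzd4 in tomato+ VEC, and the Dkk2 mean of tomato+ VEC rests on a single library at 37.6 CPM.

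Next, tomato+ cTEC were compared with tomato- mTEC. Wnt9a was called higher and Wnt10b lower in tomato+ cTEC, 2 of the 26 tested genes, against 7.83% of all tested genes (2.73% higher and 5.10% lower). The median log2 fold change of the 26 was 0.14, against 0.02 over all tested genes. Libraries did not overlap for 13 of the 26, 8 higher and 5 lower in cTEC, against 39.0% of all tested genes, 18.7% higher and 20.3% lower. Of the 13, Wnt6, Wnt9a, Wnt10a, Wnt10b and Sfrp5 passed the filter on low counts only through the group where they are high. This count, and the results of these genes below in any fit, are therefore descriptions.

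Wnt9a, a ligand known from joint and craniofacial development, had 3.85, 3.14 and 5.63 CPM in tomato+ cTEC, against 0 CPM in every tomato- mTEC library. It was in each cTEC library and in no mTEC library, and VEC libraries held at most 0.560 CPM. It was at least 44.6-fold higher in cTEC (floor of 3 counts over the mTEC libraries, edgeR adjusted p = 0.0298). Wnt10b, a ligand known from skin, bone and mammary gland, had 0.0917, 0 and 0 CPM in tomato+ cTEC, against 5.79, 6.63 and 5.85 CPM in tomato- mTEC. The 3 mTEC libraries were close to each other, and cTEC held 1 count in all. It was 197-fold lower in cTEC (95% counting interval 35.0 to 7834, edgeR adjusted p = 0.0445). Each gene passed the filter on low counts only through the group where it is high and so had to differ, and the calls are descriptions. Both rest on low counts, 139 of Wnt9a in cTEC and 190 of Wnt10b in mTEC, and both were lost without the filter on low counts. The edgeR call of Wnt9a was also lost without any epithelial library, tomato+ VEC replicate 1 or tomato- VEC replicate 2 (adjusted p of up to 0.0991), and that of Wnt10b without any library other than those same VEC libraries (adjusted p of up to 0.158).

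Wnt4 had 121, 95.2 and 62.2 CPM in tomato+ cTEC, against 21.5, 31.7 and 25.5 CPM in tomato- mTEC. All cTEC libraries were above all mTEC libraries, and the log2 fold change was 1.82 (SE 0.56, edgeR adjusted p = 0.0714), which did not pass. Its adjusted p was 0.00238 to 0.295 over the other edgeR settings, DESeq2 and limma voom. It passed with DESeq2, with limma voom and when only the epithelial libraries were fitted, and also when tomato+ VEC replicate 2 was left out (edgeR adjusted p = 0.0385). Wnt6 (log2 2.95, SE 1.57, edgeR adjusted p = 0.364) and Wnt10a (log2 -2.75, SE 1.26, edgeR adjusted p = 0.271) did not overlap between the groups but did not pass, except with limma voom. Wnt2, Wnt5a, Wnt7b, Wnt9b and Wnt11 overlapped, with edgeR adjusted p of 0.602 to 0.984.

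No receptor passed. Fzd3 had a fold change of log2 3.05 (SE 1.44, edgeR adjusted p = 0.258). The libraries listed above did not overlap, with 74.4 CPM as the lowest cTEC value and 19.1 CPM as the highest mTEC value. It passed with limma voom and in the fit of the epithelial libraries alone. Fzd7 (log2 1.49, SE 1.41, edgeR adjusted p = 0.666) was also without overlap and passed only in the fit of the epithelial libraries. Fzd1, Fzd5 and Fzd8 were higher and Fzd2 lower in every cTEC library than in any mTEC library, with edgeR adjusted p of 0.320 to 0.854. Fzd4 and Fzd10 overlapped (edgeR adjusted p = 0.766 and 0.982). Fzd6 differed by log2 0.14 (SE 0.34, edgeR adjusted p = 0.899), and by -0.0701 without cTEC replicate 2.

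Among inhibitors and R-spondins, Sfrp1 was lower in each cTEC library than in any mTEC library (log2 -1.23, SE 0.77, edgeR adjusted p = 0.437), and passed only with limma voom and in the fit of the epithelial libraries. Sfrp5 was also without overlap (log2 -4.38, SE 1.90, edgeR adjusted p = 0.211) and passed in the fit of the epithelial libraries alone. Rspo3 (edgeR adjusted p = 0.124) and Dkk2 (0.127) each had reads in 2 mTEC libraries and next to none in cTEC, and passed with DESeq2 only. Sfrp4, Dkk3 and Rspo1 overlapped, with edgeR adjusted p of 0.875 to 0.937. The sign of Sfrp4 (log2 -1.03) rested on mTEC replicate 3: without it mTEC held no read of Sfrp4, against 2.65 to 20.6 CPM in cTEC, and the gene was called higher in cTEC (edgeR adjusted p = 0.0484). With limma voom its sign turned as well, without a call. Beside these values stand the fibroblast list (9 of 10 genes with a count in each group), at 1629 to 2283 CPM in cTEC, against 170 to 430 CPM in mTEC, and the thymocyte list, at 79.9 to 120 CPM in cTEC, against 23.6 to 44.6 CPM in mTEC. The myeloid and dendritic list stood at 10.0 to 159 CPM in cTEC, against 358 to 403 CPM in mTEC. Their part in the differences was not tested.

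Within endothelium, tomato+ VEC were compared with tomato- VEC. Kitl, the gene of the reporter, had a mean of 1043 CPM in tomato+ VEC, against 438 CPM in tomato- VEC. Its libraries did not overlap, but it was not called (log2 1.25, SE 0.53, edgeR adjusted p = 0.266). The tomato- VEC mean of Kitl was above that of tomato+ cTEC, 222 CPM. With edgeR none of the 26 tested genes was called, against 1.65% of all tested genes (0.568% higher and 1.08% lower). At an unadjusted p under 0.05 there were 5 of the 26 (Dkk2, Dkk3, Rspo3, Sfrp1 and Wnt2), against 2392 of all 14792 tested genes. DESeq2 called 3 (Dkk2, Dkk3 and Sfrp4), against 1253 of all tested genes, and limma voom none, against 601. The median log2 fold change was 0 over the 26 and 0 over all tested genes. That of the 26 falls on Wnt6, Wnt10a and Wnt11, which had no VEC count, and so does not show a balance between the groups. The libraries did not overlap for Fzd4, higher in tomato+ VEC, and for Sfrp4, lower. Over all tested genes 15.8% did not overlap, 7.46% higher and 8.32% lower.

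Fzd4 had 45.8, 59.0 and 51.2 CPM in tomato+ VEC, against 24.6, 21.7 and 33.7 CPM in tomato- VEC. Each tomato+ library was above each tomato- library, and the fitted difference was log2 0.96 (SE 1.38, edgeR adjusted p = 0.799). No alternative brought its adjusted p below 0.577. Dkk2 had 2.18, 0 and 37.6 CPM in tomato+ VEC, against 0.111, 0.106 and 0.224 CPM in tomato- VEC. The difference (log2 6.38, SE 2.16, edgeR adjusted p = 0.169) rested on tomato+ VEC replicate 3, and without that library it was log2 2.86 with an adjusted p of 0.454. Wnt2 had 0, 0 and 0.107 CPM in tomato+ VEC, against 14.9, 0 and 0 CPM in tomato- VEC, so that all but 1 count came from a single tomato- library (log2 -6.65, SE 2.73, edgeR adjusted p = 0.253). Without it the sign turned (log2 2.00, edgeR adjusted p = 0.777). That library, tomato- VEC replicate 1, also held the highest sum of red cell and platelet markers, 186 CPM, against 3.32 to 19.4 CPM in the other VEC libraries. The part of that signal in Wnt2 was not tested.

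Dkk3 and Rspo3 were likewise highest in 1 tomato- library, replicate 3, at 9.86 and 10.1 CPM (edgeR adjusted p = 0.198 and 0.232). Sfrp1 was highest in tomato+ VEC replicate 2, at 2.62 CPM (edgeR adjusted p = 0.202). Fzd6 (log2 0.06, SE 0.34, edgeR adjusted p = 0.980), Fzd5 (log2 0.16, SE 1.11, edgeR adjusted p = 0.997), both with a sign that turned without tomato+ VEC replicate 1 and, for Fzd5, without tomato- VEC replicate 1, and Fzd8 (log2 1.56, SE 0.88, edgeR adjusted p = 0.421) were present in all 6 libraries with overlap. Sfrp4 had 0 CPM in every tomato+ VEC library, against 0.111, 0.106 and 0.336 CPM in tomato- VEC, 5 counts in all (edgeR adjusted p = 0.599). Wnt6, Wnt10a and Wnt11 had no count in either group, and the remaining tested genes had edgeR adjusted p of 0.417 to 0.779. The 2 groups differ in vessel type by their markers: 8 arterial genes summed to 2171 to 2466 CPM in tomato+ VEC, against 745 to 838 CPM in tomato- VEC, and 6 venous genes to 419 to 802 CPM, against 5803 to 6944 CPM. The 5 lymphatic genes summed to 49.0 to 61.6 CPM in tomato+ VEC (4 with a count), against 102 to 185 CPM in tomato- VEC (5 with a count), with Lyve1 at 0 in tomato+ VEC. The 7 medullary epithelial genes summed to 9.96 to 86.8 CPM in tomato+ VEC (5 with a count), against 152 to 352 CPM in tomato- VEC (7 with a count). Nearly all of that sum was Tnfrsf11a and Ccl21a, Aire had 0 and 1 counts, and the 6 epithelial markers summed to at most 1.23 CPM in any VEC library. The part of the arterial, venous, lymphatic and medullary lists in the values of Fzd4, and in those of Lgr4 and Celsr1 below, was not tested.

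The fold change of tomato+ over tomato- VEC was also set against that of tomato+ cTEC over tomato- mTEC, as the difference between them. In the TEC fold change the reporter cannot be told apart from cortex and medulla, so the difference is not one of reporter effects. With edgeR none of the 26 genes passed, and 6 had an unadjusted p under 0.05. The share of all tested genes under that p was not computed, so the 6 are a description. The lowest edgeR adjusted p were 0.0510 for Wnt9a and 0.0513 for Dkk2.

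**Figure D4:**
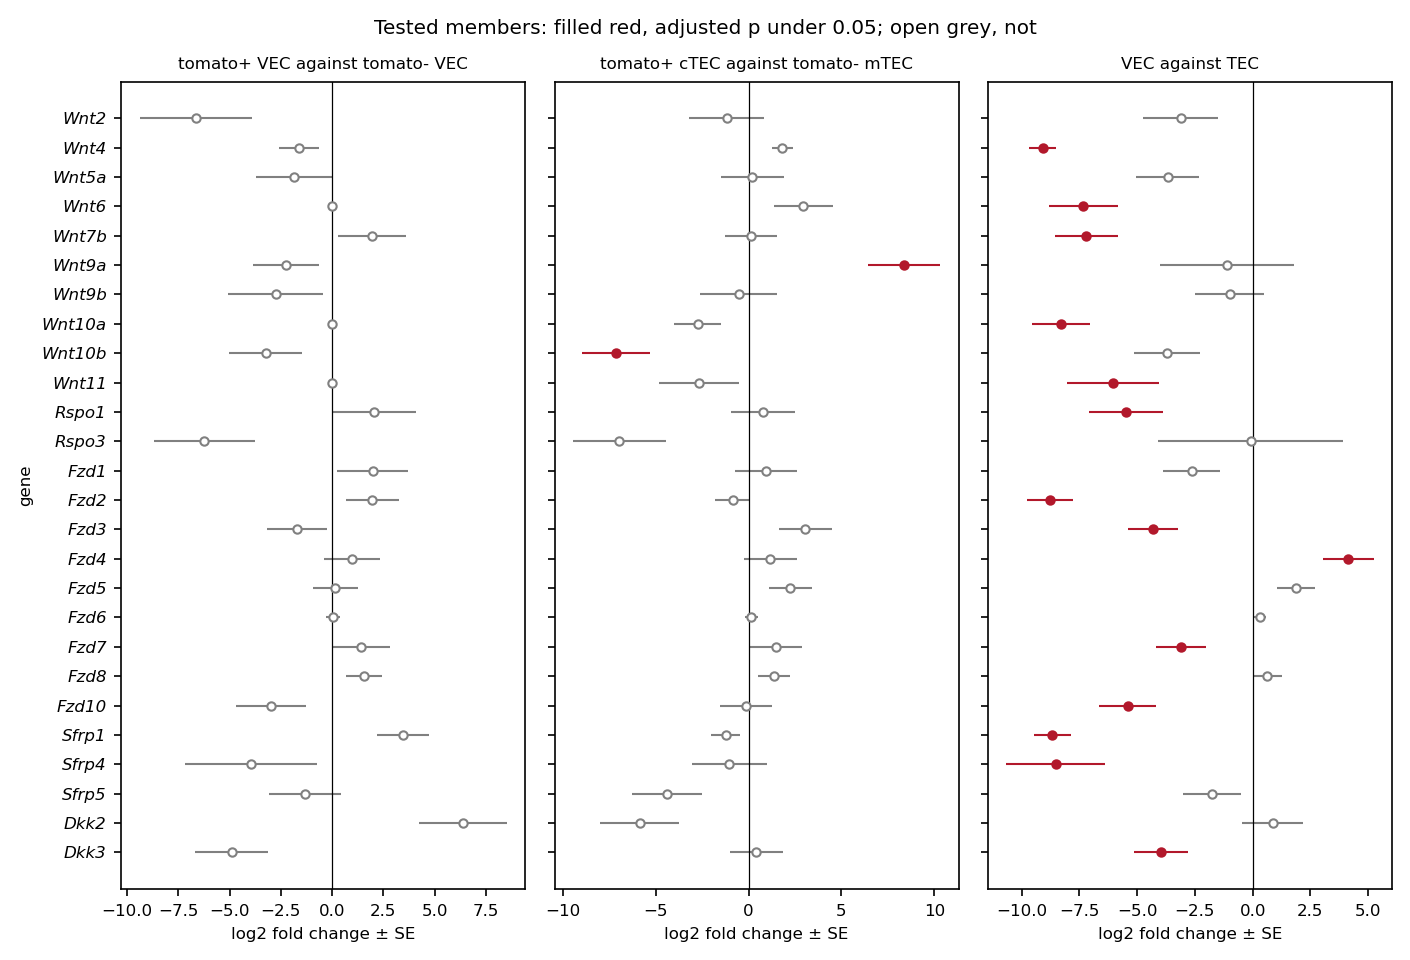
Fitted log2 fold change with its SE for the 26 tested genes in the comparison of tomato+ with tomato- VEC (left), of tomato+ cTEC with tomato- mTEC (middle) and of VEC with TEC (right); positive values mean higher in the first-named group, and fitted values of genes with 0 to 3 counts in a group depend on the prior count. Filled red points passed an edgeR adjusted p under 0.05: none on the left, Wnt9a and Wnt10b in the middle, and 14 genes on the right, of which Fzd4 alone is positive.

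The other genes of the pathway were taken from lists of 67 genes, of which 57 were tested. Between VEC and TEC, 8 were higher and 20 lower in VEC, against 36.3% of all tested genes, 14.4% higher and 21.8% lower. The median log2 fold change of the 57 was -0.56, against -0.18 over all tested genes. Genes with next to no reads in VEC, such as Rnf43, Nkd1 and Tnfrsf19 below, passed the filter only through TEC and had to differ. Their calls, these counts and the median are therefore descriptions. For the release of ligands, Wls, the carrier that brings Wnts to the cell surface, had 133, 74.4 and 124 CPM in tomato+ VEC and 212, 96.6 and 193 CPM in tomato- VEC, against 776, 651 and 676 CPM in tomato+ cTEC and 162, 295 and 244 CPM in tomato- mTEC. It was lower in VEC (log2 -1.58, SE 0.24, edgeR adjusted p = 2.78e-04). In cTEC it was higher than in mTEC (log2 1.59, SE 0.34, edgeR adjusted p = 0.0159). The cTEC and mTEC libraries did not overlap, and that call was lost without cTEC replicate 1 or mTEC replicate 1, with edgeR adjusted p of up to 0.0704.

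Of the R-spondin receptors, Lgr4 had 60.4, 59.1 and 31.7 CPM in tomato+ VEC and 215, 266 and 147 CPM in tomato- VEC, against 742, 580 and 588 CPM in tomato+ cTEC and 329, 462 and 378 CPM in tomato- mTEC. It was lower in VEC (log2 -2.28, SE 0.21, edgeR adjusted p = 6.95e-06), and within VEC it was lower in the tomato+ group (log2 -2.06, SE 0.30, edgeR adjusted p = 0.00560). The call within VEC was lost when the VEC libraries were fitted alone (edgeR adjusted p = 0.0545). Lgr5, the stem cell receptor, was not tested and stayed at or under 1.47 CPM. Rnf43, the ligase that removes Frizzled receptors, had 0.312, 0.131 and 0.214 CPM in tomato+ VEC and 0.111, 0.212 and 0.112 CPM in tomato- VEC, against 16.8, 28.3 and 33.5 CPM in tomato+ cTEC and 13.9, 19.3 and 18.4 CPM in tomato- mTEC. It was lower in VEC (log2 -6.78, SE 0.60, edgeR adjusted p = 4.17e-06).

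Among coreceptors, Lrp6 had 26.9, 86.2 and 60.0 CPM in tomato+ VEC and 75.1, 45.4 and 28.8 CPM in tomato- VEC, against 163, 158 and 150 CPM in tomato+ cTEC and 42.2, 85.0 and 54.0 CPM in tomato- mTEC, and Lrp5 stayed between 1.06 and 10.2 CPM in all libraries. Neither was called between VEC and TEC (edgeR adjusted p = 0.0544 for Lrp6 and 0.115 for Lrp5). Of the norrin pathway, Tspan12, which works with Fzd4 and was chosen for mention after its values were seen, was higher in VEC (log2 2.22, SE 0.37, edgeR adjusted p = 6.39e-04). It had 548, 406 and 737 CPM in tomato+ VEC and 461, 174 and 233 CPM in tomato- VEC, against 53.2, 182 and 137 CPM in tomato+ cTEC and 31.2, 94.5 and 56.9 CPM in tomato- mTEC, with cTEC replicate 2 at the level of the lowest VEC library. Ndp, the gene of norrin, had 0 CPM in all but 1 library. The inhibitor genes Frzb and Wif1 were not tested and had reads in at most 2 libraries each.

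Of feedback and target genes, 1 of 10 tested was higher and 7 were lower in VEC, beside the 14.4% higher and 21.8% lower over all tested genes. Nkd1 and Tnfrsf19 among them passed the filter only through TEC, and Sox9 had few reads in every VEC library. This count and the Sox9 call are therefore descriptions too. Axin2, a feedback target of beta-catenin in many tissues, had 6.65, 2.48 and 0 CPM in tomato+ VEC and 0, 0.106 and 1.91 CPM in tomato- VEC, against 10.5, 10.00 and 7.71 CPM in tomato+ cTEC and 3.66, 8.49 and 7.53 CPM in tomato- mTEC. Its fold change of log2 -2.44 (SE 1.15, edgeR adjusted p = 0.122) was not called. Nkd1, another feedback gene, was lower in VEC (log2 -5.22, SE 1.40, edgeR adjusted p = 0.0114), at 0 to 0.223 CPM in VEC, against 0.116 to 13.2 CPM in TEC. Without mTEC replicate 3 its edgeR adjusted p was 0.0541. Sox9 was at 0 to 1.82 CPM in VEC, against 281 to 332 CPM in cTEC and 310 to 386 CPM in mTEC (log2 -9.78, SE 0.65, edgeR adjusted p = 4.26e-07). Cd44, an adhesion receptor, had 13.9, 7.98 and 43.2 CPM in tomato+ VEC and 0.223, 0 and 1.01 CPM in tomato- VEC, against 197, 207 and 263 CPM in tomato+ cTEC and 110, 170 and 112 CPM in tomato- mTEC. It was lower in VEC (log2 -5.82, SE 0.60, edgeR adjusted p = 1.32e-05), and within VEC higher in the tomato+ group (log2 5.70, SE 0.88, edgeR adjusted p = 0.00752), though not when the VEC libraries were fitted alone (edgeR adjusted p = 0.201). Ccnd1, the gene of cyclin D, had 76.4, 96.1 and 85.8 CPM in tomato+ VEC and 87.5, 153 and 98.5 CPM in tomato- VEC, against 20.9, 20.7 and 12.5 CPM in tomato+ cTEC and 49.0, 50.2 and 56.8 CPM in tomato- mTEC. It was higher in VEC (log2 1.69, SE 0.23, edgeR adjusted p = 1.40e-04) and lower in cTEC than in mTEC (log2 -1.53, SE 0.33, edgeR adjusted p = 0.0169). The call between cTEC and mTEC was lost without cTEC replicate 3 or any mTEC library, with edgeR adjusted p of up to 0.0720.

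Tnfrsf19, a receptor known as a beta-catenin target, had 0.208, 0.392 and 0.214 CPM in tomato+ VEC and 0.111, 0.212 and 0.112 CPM in tomato- VEC, against 39.9, 69.6 and 46.6 CPM in tomato+ cTEC and 2.41, 3.02 and 1.12 CPM in tomato- mTEC. It was lower in VEC (log2 -5.66, SE 0.56, edgeR adjusted p = 1.08e-05). In cTEC it was higher than in mTEC (log2 4.57, SE 0.73, edgeR adjusted p = 0.00345), with no overlap in either comparison. Of the transducers, Ctnnb1, the gene of beta-catenin, had 1139, 1115 and 870 CPM in tomato+ VEC and 584, 748 and 563 CPM in tomato- VEC, against 519, 534 and 518 CPM in tomato+ cTEC and 313, 343 and 283 CPM in tomato- mTEC. It was higher in VEC (log2 1.00, SE 0.13, edgeR adjusted p = 9.79e-05). In cTEC it was higher than in mTEC (log2 0.74, SE 0.19, edgeR adjusted p = 0.0316). Celsr1, a cadherin of planar polarity, had 0.104, 0.392 and 1.18 CPM in tomato+ VEC and 10.1, 5.10 and 10.1 CPM in tomato- VEC, against 34.8, 28.1 and 18.8 CPM in tomato+ cTEC and 40.0, 36.5 and 30.1 CPM in tomato- mTEC. It was lower in VEC (log2 -3.82, SE 0.56, edgeR adjusted p = 2.27e-04) and lower in tomato+ than in tomato- VEC (log2 -3.88, SE 0.81, edgeR adjusted p = 0.0335). The call within VEC was lost without a library other than tomato+ VEC replicate 3 or tomato- VEC replicate 2, with edgeR adjusted p of up to 0.0862, and when the VEC libraries were fitted alone (edgeR adjusted p = 0.298). Lef1 was lower in VEC (log2 -5.38, SE 1.35, edgeR adjusted p = 0.00818), at 0 to 1.50 CPM, against 1.65 to 14.5 CPM in TEC. With so few VEC reads, the Lef1 call is a description. Tcf7, the related factor known from T cells, was not called (log2 -2.68, SE 1.12, edgeR adjusted p = 0.0825). The 10 thymocyte genes summed to 4.84 to 22.0 CPM in tomato+ VEC and 2.34 to 33.0 CPM in tomato- VEC. In cTEC they summed to 79.9 to 120 CPM and in mTEC to 23.6 to 44.6 CPM. Their part in the values of Lef1 and Tcf7 was not tested.

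Between tomato+ cTEC and tomato- mTEC, 5 of the 57 were higher and 1, Ccnd1, was lower in cTEC, beside 7.83% of all tested genes, 2.73% higher and 5.10% lower. The median log2 fold change was 0.72, against 0.02 over all tested genes. Beside Wls, Tnfrsf19 and Ctnnb1, these were Tcf7l2 (log2 1.14, SE 0.24, edgeR adjusted p = 0.0151), a TCF factor, and Gsk3b (log2 0.74, SE 0.20, edgeR adjusted p = 0.0382), a kinase that marks beta-catenin for destruction. Tcf7l2 had 205, 218 and 210 CPM in tomato+ cTEC, against 104, 82.8 and 101 CPM in tomato- mTEC. Gsk3b had 837, 722 and 693 CPM in tomato+ cTEC, against 469, 489 and 386 CPM in tomato- mTEC. The Tcf7l2 call was lost without cTEC replicate 1 or 2 or mTEC replicate 2, with edgeR adjusted p of up to 0.0662. Those of Ctnnb1 and Gsk3b were lost without the filter on low counts (edgeR adjusted p = 0.0603 and 0.0721) and without any epithelial library, with adjusted p of up to 0.109 and 0.168. The Ctnnb1 call was also lost without tomato+ VEC replicate 2, and that of Gsk3b without tomato+ VEC replicate 1 or tomato- VEC replicate 2 and with relative log expression scaling (edgeR adjusted p = 0.0633). Between tomato+ and tomato- VEC, 1 of the 57 was higher, Cd44, and 2 were lower, Lgr4 and Celsr1, beside 1.65% of all tested genes, 0.568% higher and 1.08% lower. The median log2 fold change was 0.24, against 0 over all tested genes.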

How the data were processed

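RNA of sorted thymic stromal cells was amplified with a low-input SMARTer kit, per the labels' protocols, in 12 libraries of 4 groups of 3. Alignment used TopHat2 2.0.10 and the build mm9, per the submitters' processing notes; the counter, the annotation and any filter were not given in the sources used here. Per the file headers, the authors deposited raw counts per gene and library, which are whole and sum to a different total per library. They also deposited RPKM, which equalled count over column total and a single length per gene for the 41 genes. RPKM served only to set levels of different genes side by side.

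The quasi-likelihood test of edgeR 4.0.16 (R 4.3.3) was run on the counts. The filter filterByExpr (minimum count 10) left 14792 genes, 26 of the 41 among them, and scaling was by TMM. The 12 libraries shared a fit with a term per group (8 residual degrees of freedom, common dispersion 0.624), and a gene was called at a p under 0.05 after Benjamini-Hochberg adjustment over all tested genes. Contrasts were tomato+ over tomato- VEC, tomato+ cTEC over tomato- mTEC, the difference of these, and the mean of the VEC groups over the mean of the TEC groups. The SE is the log2 fold change over the square root of F. Folds against 0 counts use a floor of 3 counts over the group, and those against 1 to 3 counts have a 95% counting interval. Floors and intervals cover counting error only. Alternatives were DESeq2 1.42.0, limma 3.58.1 voom, relative log expression scaling, no filter, a replicate block, only the libraries compared, and leaving out each library. Replicate numbers were at most weakly linked across groups, and the main fit has no term for them. The correlation of deviations was -0.01 to 0.08 over 18 same-numbered pairs from different groups, against -0.06 to 0.03 over the other pairs. Of the 12 libraries, 8 were closest to their own number.

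Values and tests are given in full for genes called in at least 1 comparison and for the 3 genes of each family with the highest group mean. Of the other pathway genes, up to 8 called per comparison with the smallest p are named, besides Axin2, Nkd1, Lef1, Tcf7, Wls, Lgr4, Lgr5, Lrp5, Lrp6, Frzb and Wif1. The genes and lists were chosen with earlier results of these data known. The reference at hand is of a later build than the files, so no coordinates but those of the RefSeq promoters are given.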

Additional observations from a re-analysis of the deposited data

How the results depend on the processing

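Counts of called genes for VEC against TEC stayed within 1.5 times of the main value under every alternative. There the leave-one-out range was 11 to 15 for the Wnt, Fzd, Sfrp, Dkk and Rspo genes (14 in the main analysis), 24 to 29 for the other pathway genes (28) and 4568 to 5501 for all genes (5363). For tomato+ cTEC against tomato- mTEC, family genes called were 5 with DESeq2, 7 with limma voom, 7 with only the libraries compared, and 0 with no filter and with the replicate block (2 in the main analysis; leave-one-out range 0 to 2). Other pathway genes were 13 with only the libraries compared (6; 2 to 6), and all genes were 1973 with DESeq2, 2219 with limma voom and 2487 with only the libraries compared (1158; 428 to 1193). For tomato+ against tomato- VEC, family genes were 3 with DESeq2 and 0 otherwise (0; 0 to 0), other pathway genes 0 with only the libraries compared (3; 2 to 4), and all genes 1253 with DESeq2, 601 with limma voom and 112 with only the libraries compared (244; 174 to 394). The cause was not tested. The replicate number as a block, with numbers at most weakly linked across groups, left 178 genes called in VEC, 814 in TEC and 4928 for VEC against TEC. The calls named in the text for Wnt9a, Wnt10b, Wnt11, Celsr1 and Gsk3b were among those lost. Of the 12 libraries, 8 correlated best with their own number. Of 1468 fold changes of 85 named results under the alternatives, 1295 kept their direction and their side of the threshold, 125 lost and 32 gained the call, and 16 changed sign. Of these 16 only Sfrp4 in cTEC against mTEC without mTEC replicate 3 was called. Sfrp4 there had log2 -1.03 in the main analysis, 4.04 with limma voom, 2.23 with the replicate block and -1.61 to 9.94 over the fits without a library, the last of these depending on the prior count since mTEC then held no read. The other sign changes all came from leaving out a library, with fold changes on the log2 scale from -0.12 to 0.29 for Fzd6, -0.25 to 0.51 for Fzd5 and -8.57 to 2.00 for Wnt2 within VEC, from -0.0701 to 0.43 for Fzd6 within TEC, and from -0.87 to 1.31 for Dkk2 and -1.14 to 0.83 for Rspo3 for VEC against TEC. Most Wnt, Dkk and Rspo genes had under 10 counts in a VEC library, a depth at which small differences were not detectable.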
